A study of Mus musculus with 40 samples.

Results

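Cocaine was compared with saline in the nucleus accumbens of intact female C57BL/6J mice, that is, females that were not operated on. The 10 libraries were chosen by their labels alone, 5 from cocaine mice (numbers 70, 71, 72, 79 and 80) and 5 from saline mice (64, 65, 66, 77 and 78), of 40 libraries in the series. The cocaine mice received a daily dose of 10 mg/kg on the first and last treatment days (1 and 7) and of 20 mg/kg on days 2 to 6, and the saline mice were given saline. All were handled for 3 days beforehand, and tissue was collected after a withdrawal period whose length the labels do not give. Left and right punches of the region were taken, and the labels name an AmpliSeq library kit and a shared sequencing lane. Age and stage of the estrous cycle are not given, and no label says whether mice shared a litter or cage. The p-values therefore measure the spread between 1-mouse libraries within groups, pooled over all 40 libraries of the series. The other 30 libraries, from intact males and from ovariectomized females with placebo or estradiol, serve here to estimate the spread and, in a closing comparison, to set the response of intact females beside the others.

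The nucleus accumbens is the ventral part of the striatum. Most of its neurons are inhibitory medium spiny projection neurons of a D1 type, which carry dopamine receptor D1 and make dynorphin and substance P, or a D2 type, which carry dopamine receptor D2 and make enkephalin. Cocaine blocks the transporter that clears dopamine from the synapse, and a dose given to a rodent briefly induces immediate-early genes such as Fos in these neurons. Repeated doses are known for a longer-lived product of Fosb and for changes in opioid peptides, glutamate receptors and neurotrophins.

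Levels are the authors' values, taken as TPM because each library sums to 1000000. In that unit fragments are divided by transcript length before scaling, and whether this was done here is not given. TPM keeps no fragment counts, so the depth of a single library cannot be read from it and no counting error is given. Genes with a level above 0 numbered 15656 to 17738 in cocaine mice and 15525 to 17191 in saline mice. Xist, the RNA that silences an X chromosome in females, was present in all 10, at 152 to 270.5 TPM in cocaine mice and 80.6 to 308 TPM in saline mice. Markers of striatal projection neurons were abundant in every library, so the tissue label matched its markers. Summed over 16 markers of cortical excitatory neurons, however, cocaine mice 71 and 72 reached 1310 and 954 TPM, against 329.5 to 399 TPM in the other 3 cocaine mice and 249.7 to 541.9 TPM in the saline mice. Saline mouse 64 stood apart in another way: genes for cytosolic ribosomal proteins held 13.4% of its TPM, against 7.35% to 8.77% in cocaine mice and 7.33% to 7.80% in the other saline mice. List counts that turn or move by more than 1.5 times without these libraries are given without them as well, from the same model with cocaine mice 71 and 72, or saline mouse 64, left out. Such list counts are taken against 0, and the share of all genes above 0 in those fits is not given. Where a median relative to all genes is given, it is the list median minus that of all genes in the same fit.

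No gene passed the test in the model that weights all libraries equally. Of 15196 genes tested with limma, 0 (0%) had a Benjamini-Hochberg adjusted p under 0.05, and 145 (0.954%) had an unadjusted p under 0.05, of which 89 (0.586%) were higher and 56 (0.369%) lower in cocaine mice. After each library was centred on its median the split was 102 higher and 114 lower. The smallest adjusted p was 0.363, for the unnamed transcript 4930405J17Rik, and the adjusted p was 1 for each of the 98 genes followed individually here. The values below are therefore measured levels and differences, none of which passed the threshold over all genes. Every difference is cocaine minus saline on the scale of log2(TPM + 0.5), with the standard error of the model. Across all genes tested the median difference was 0.03, and 57.9% of genes lay above 0 and 42.1% below it.

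Striatal projection neuron markers lay below 0 without exception. Of 20 such genes, 20 had a lower mean log2 level in cocaine mice, with differences between -0.43 (Ppp1r1b) and -0.18 (Foxp2) and a median of -0.29. None had an unadjusted p under 0.05, and in no gene of the list were the groups apart. The summed level of the list was 6369, 6180, 5274, 6041 and 7038 TPM in cocaine mice 70, 71, 72, 79 and 80, against 6426, 8254, 9263, 6720 and 8257 TPM in saline mice 64, 65, 66, 77 and 78. Saline mice 65, 66 and 78 were above every cocaine mouse, and saline mice 64 and 77 lay within the cocaine range. The highest of the 10 mice was a saline mouse for each of the 20 genes, mouse 66 for 14 of them, mouse 65 for 5 and mouse 78 for 1. The lowest was saline mouse 64 for 9 genes, cocaine mouse 72 for 6 and cocaine mouse 79 for 5. In bulk tissue, fewer cells of a type and less RNA per cell cannot be told apart. Without cocaine mice 71 and 72, 19 of the 20 genes lay below 0, and without saline mouse 64 all 20 did.

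**Figure D1:**
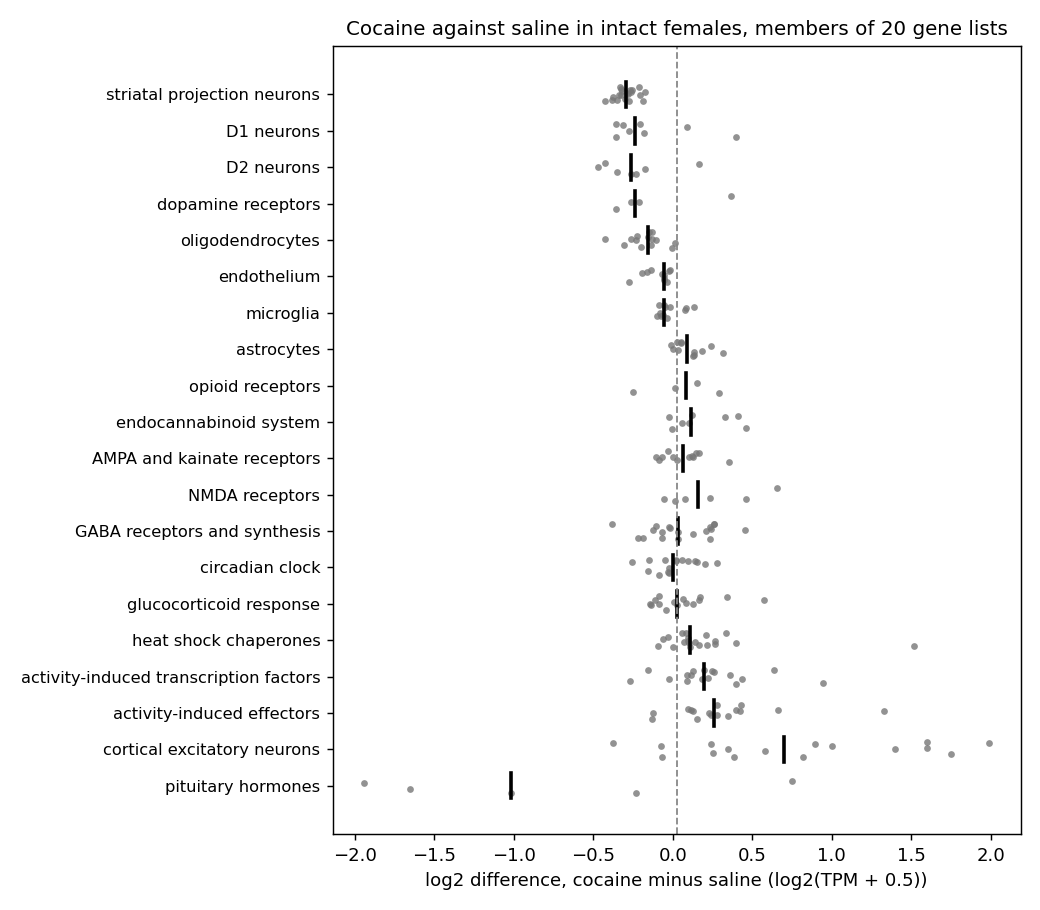
Log2 differences (cocaine minus saline, log2(TPM + 0.5), horizontal axis) of the tested members of 20 gene lists in intact females. Each grey point is a gene, the black bar is the median of the list and the dashed line is the median of all genes tested (0.03). All points of the striatal projection neuron list lie left of 0, and the cortical excitatory neuron list has its median at 0.70.

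The widest of these differences belonged to Ppp1r1b, which encodes DARPP-32, the protein that relays dopamine receptor signals to protein phosphatase 1 in medium spiny neurons (chr11:98348404-98357796, plus strand, mm10). Its level was 1301, 1046, 782, 768 and 1137 TPM in cocaine mice 70, 71, 72, 79 and 80, against 1418, 1495, 1361, 1001 and 1409 TPM in saline mice 64, 65, 66, 77 and 78. All saline mice but number 77 were above all cocaine mice, and the groups overlapped only through that mouse. Means were 1007 ± 230 TPM in cocaine mice and 1337 ± 194 TPM in saline mice (SD, n = 5 each), a log2 difference of -0.43 ± 0.25 (95% interval -0.94 to 0.09). Pde1b, a calcium-dependent phosphodiesterase that breaks down cyclic nucleotides, differed by -0.37 ± 0.31, and Rgs9, a brake on G-protein signalling in striatum, by -0.32 ± 0.30.

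Among markers of D2 neurons, 6 of 7 lay below 0, with a median of -0.26. Penk, the precursor of the enkephalin opioid peptides (chr4:4133531-4138819, minus strand, mm10), was at 1833, 1384, 1058, 1453.5 and 1738 TPM in cocaine mice 70, 71, 72, 79 and 80. In saline mice 64, 65, 66, 77 and 78 it was at 2189, 2011, 2315, 1607 and 2129 TPM. Saline mouse 77 was again the only saline mouse inside the cocaine range, below cocaine mice 70 and 80. The difference was -0.47 ± 0.25 (95% interval -0.97 to 0.03, limma unadjusted p = 0.0642), and it was -0.29 ± 0.29 without cocaine mice 71 and 72. Adora2a, an adenosine receptor concentrated in D2 neurons, was at 195, 164, 133, 134 and 175 TPM in the cocaine mice and at 234, 228, 235, 153 and 230 TPM in the saline mice, in the same order of mice. Here too all saline mice but number 77 were above all cocaine mice, and the difference was -0.43 ± 0.27. Drd2, the D2 receptor itself, overlapped more widely, at 110 to 144 TPM in cocaine mice and 104 to 172 TPM in saline mice. Grik3, a kainate receptor subunit, was the exception above 0, at 0.16 ± 0.41. Without saline mouse 64 all 7 markers lay below 0.

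Of 8 markers of D1 neurons, 6 lay below 0 and the median was -0.24. Drd1, the D1 receptor, was at 126, 136, 112, 161 and 156 TPM in cocaine mice 70, 71, 72, 79 and 80, and at 142, 162, 240, 159 and 187 TPM in saline mice 64, 65, 66, 77 and 78. The groups overlapped, with saline mouse 66 highest and cocaine mouse 72 lowest, and the difference was -0.35 ± 0.30. Tac1, the substance P precursor, averaged 536 ± 53.3 TPM in cocaine mice and 615 ± 128 TPM in saline mice (SD, n = 5 each). For Pdyn, the dynorphin precursor, the difference was -0.31 ± 0.41, and it was -0.14 ± 0.48 without cocaine mice 71 and 72. Cartpt, the precursor of the CART peptides named for cocaine and amphetamine, spanned 121 to 151 TPM in cocaine mice, inside the 103 to 181 TPM of saline mice. Members above 0 were Sfxn1, a mitochondrial serine transporter, at 0.09 ± 0.30, and Eya1, a transcriptional coactivator, at 0.40 ± 0.38.

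**Figure D2:**
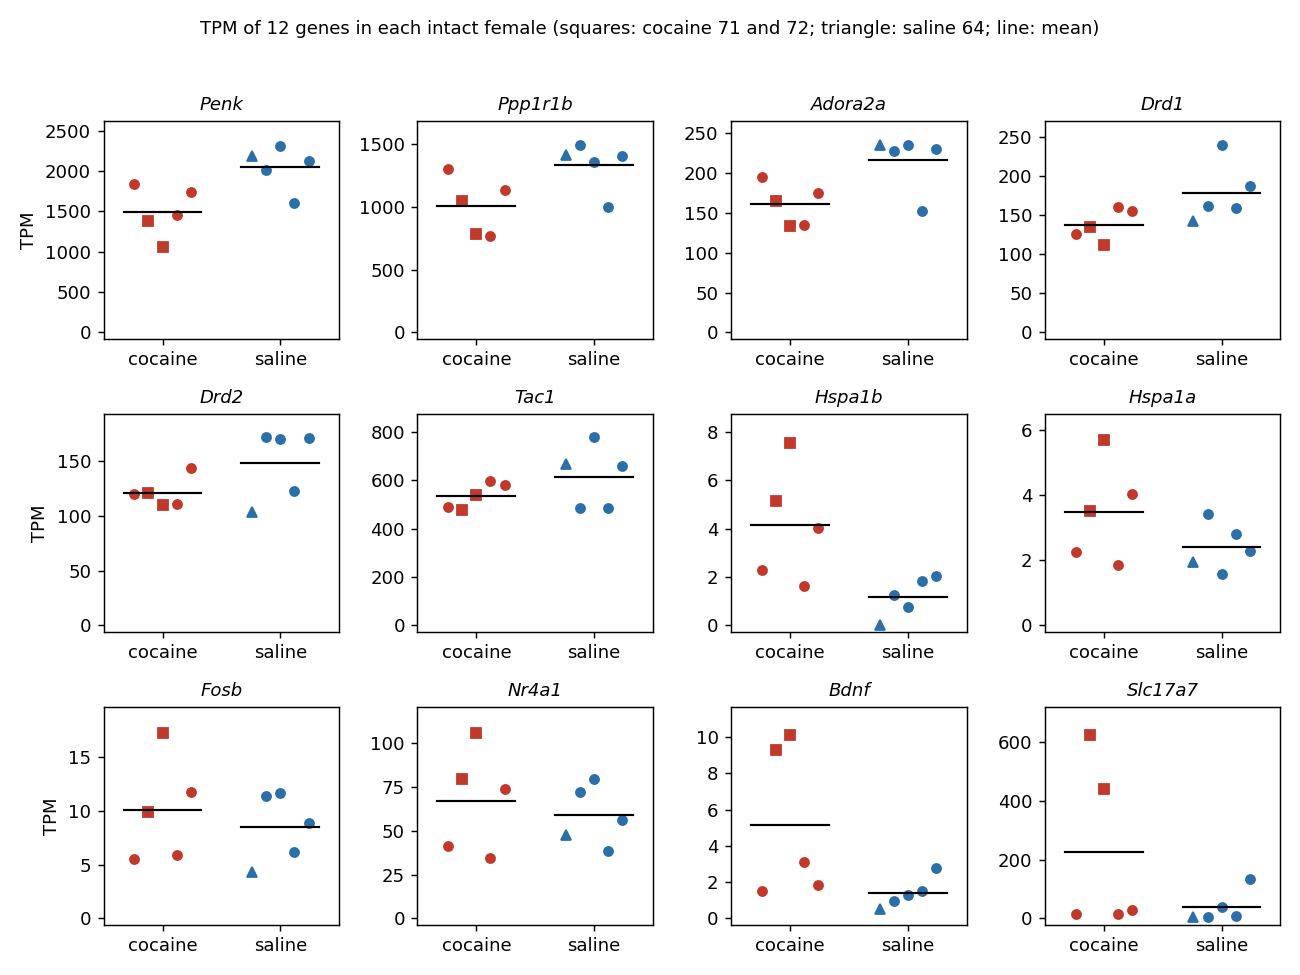
Level of 12 genes in each intact female (TPM, linear vertical axes), with cocaine mice on the left in red and saline mice on the right in blue and a line at each group's mean (n = 5 each). Squares are cocaine mice 71 and 72 and triangles saline mouse 64. Penk, Ppp1r1b and Adora2a overlap only through the lowest saline mouse, and Bdnf and Slc17a7 are far higher in the 2 squares than in the other cocaine mice.

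Dopamine itself reaches the region through axons whose cell bodies lie in the midbrain. Th, tyrosine hydroxylase, which makes the dopamine precursor, was at 20.9, 8.21, 7.21, 16.5 and 13.0 TPM in cocaine mice 70, 71, 72, 79 and 80, against 18.9, 19.7, 16.3, 15.5 and 16.0 TPM in saline mice 64, 65, 66, 77 and 78. The lowest levels were those of cocaine mice 71 and 72, the pair with high cortical markers, and the difference of -0.48 ± 0.33 became -0.06 ± 0.37 without them. With the summed cortical marker level as a covariate it was -0.33 ± 0.31. Drd3, the D3 receptor, differed by -0.21 ± 0.52. Of 10 tested genes for dopamine synthesis, transport and breakdown, 6 lay above 0, or 3 without saline mouse 64.

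Activity-induced genes were highest in the same pair of mice. Of 17 activity-induced transcription factors, 14 lay above 0 with a median of 0.20, and of 16 activity-induced effectors, 14 did with a median of 0.26, against 57.9% of all genes. Without cocaine mice 71 and 72, 5 of 17 transcription factors and 9 of 16 effectors lay above 0. Cocaine mouse 72 was the highest of the 10 mice for 12 of the transcription factors, and mouse 72 or 71 for 12 of the effectors. Fosb was at 5.56, 9.95, 17.2, 5.91 and 11.7 TPM in cocaine mice 70, 71, 72, 79 and 80, against 4.35, 11.4, 11.7, 6.17 and 8.91 TPM in saline mice 64, 65, 66, 77 and 78. Apart from mouse 72 the groups covered nearly the same range. The difference was 0.20 ± 0.45 (95% interval -0.71 to 1.11), and -0.12 ± 0.52 without mice 71 and 72. These values do not separate the products of the Fosb gene. Fos was at 5.29 to 36.1 TPM in cocaine mice and 8.004 to 22.1 TPM in saline mice. Arc, which regulates AMPA receptor uptake, differed by 0.15 ± 0.47 and Nr4a1, a nuclear receptor, by 0.11 ± 0.40. Without mice 71 and 72 these were -0.31 ± 0.53 and -0.27 ± 0.45.

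Bdnf, the neurotrophin that acts on the TrkB receptor, had the largest difference among the effectors. It was at 1.501, 9.26, 10.1, 3.13 and 1.85 TPM in cocaine mice 70, 71, 72, 79 and 80, against 0.518, 0.977, 1.27, 1.51 and 2.80 TPM in saline mice 64, 65, 66, 77 and 78. Mice 71 and 72 were far above the rest, cocaine mouse 79 was also above every saline mouse, and cocaine mice 70 and 80 lay inside the saline range. The difference was 1.33 ± 0.62 (limma unadjusted p = 0.0381), and it was 0.54 ± 0.69 without mice 71 and 72. With the summed cortical marker level as a covariate it was 0.70 ± 0.37. Ntrk2, the gene for TrkB, spanned 236 to 257 TPM in cocaine mice and 147 to 279 TPM in saline mice.

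The cortical list itself lay above 0 in 13 of 16 members, with a median of 0.70, and in 9 of 16 without mice 71 and 72. Slc17a7, which loads glutamate into vesicles of cortical neurons, was at 14.9, 622, 441, 16.0 and 28.6 TPM in cocaine mice 70, 71, 72, 79 and 80, against 5.84, 5.81, 37.5, 9.45 and 135 TPM in saline mice 64, 65, 66, 77 and 78. Mice 71 and 72 stood far above all others, followed by saline mouse 78. The difference was 1.99 ± 1.51, and 0.09 ± 1.65 without that pair. Neurod1, a transcription factor of glutamatergic neurons, differed by 1.60 ± 0.58 and Nrn1, a neurite growth factor, by 1.75 ± 0.79, and without the pair by 0.88 ± 0.64 and 0.94 ± 0.87. Vip, the peptide of a class of cortical interneurons, reached 24.3 and 30.2 TPM in mice 71 and 72, against 3.97 to 6.28 TPM in the other cocaine mice and 3.25 to 9.19 TPM in saline mice.

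**Figure D3:**
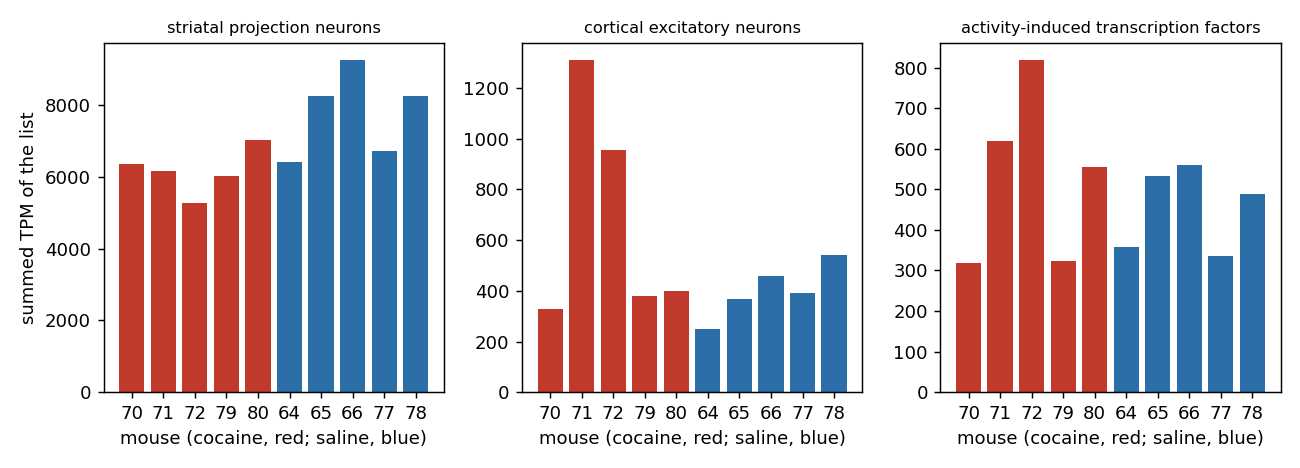
Summed TPM of 3 gene lists in each mouse (vertical axes start at 0), with the 5 cocaine mice in red on the left of each panel and the 5 saline mice in blue on the right. Cocaine mice 71 and 72 carry the 2 highest sums of cortical excitatory neuron markers (1310 and 954 TPM) and of activity-induced transcription factors (620 and 819 TPM), while the highest sums of striatal projection neuron markers are those of saline mice 65, 66 and 78.

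Hspa1b had the smallest unadjusted p among the members of the lists. It encodes the inducible form of the heat shock protein HSP70, a chaperone that binds unfolded proteins (chr17:34956436-34959238, minus strand, mm10), and lies beside its near-identical copy Hspa1a. The 250 bases before the start site of each are shown so that the copies can be compared. Both come from RefSeq (GRCm38.p6) and are written 5' to 3' on the minus strand. In Hspa1b the capitals mark a pair of heat shock elements facing each other, and in Hspa1a they mark the 3 bases that differ from Hspa1b.
Hspa1b (chr17:34959239-34959488): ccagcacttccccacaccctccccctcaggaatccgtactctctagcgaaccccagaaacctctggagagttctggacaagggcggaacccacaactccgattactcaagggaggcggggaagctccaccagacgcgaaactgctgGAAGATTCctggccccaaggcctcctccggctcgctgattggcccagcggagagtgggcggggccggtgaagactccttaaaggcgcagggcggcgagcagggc
Hspa1a (chr17:34972157-34972406): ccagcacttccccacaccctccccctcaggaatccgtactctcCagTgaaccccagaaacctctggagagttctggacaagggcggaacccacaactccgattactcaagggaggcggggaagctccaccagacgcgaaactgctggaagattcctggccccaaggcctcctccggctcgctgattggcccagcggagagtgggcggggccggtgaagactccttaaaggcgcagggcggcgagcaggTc
Of these 250 bases, 247 were identical. The motif searched was GAANNTTC or TTCNNGAA on either strand, a pair of the inverted units that heat shock factor 1 is known to bind, and in Hspa1b its first base lay 104 bases before the start. In windows of 300 bases, which include 50 bases after the start, it was present in 9 of 16 heat shock chaperone genes with a window (56.2%) and in 4587 of 27025 genes in all (17%), counting a gene once. A match is only a description of these letters.

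Hspa1b was at 2.30, 5.16, 7.56, 1.64 and 4.03 TPM in cocaine mice 70, 71, 72, 79 and 80, against 0, 1.25, 0.758, 1.81 and 2.02 TPM in saline mice 64, 65, 66, 77 and 78. All cocaine mice but number 79 were above all saline mice, and mouse 79 was below saline mice 77 and 78. The difference was 1.52 ± 0.45 (95% interval 0.62 to 2.42, limma unadjusted p = 0.00151, adjusted p = 1), and it was 1.05 ± 0.50 without mice 71 and 72. Hspa1a was at 2.26, 3.50, 5.68, 1.86 and 4.03 TPM in the cocaine mice and at 1.93, 3.43, 1.58, 2.79 and 2.30 TPM in the saline mice, in the same order. It overlapped between the groups, with a difference of 0.40 ± 0.32, or 0.13 ± 0.37 without mice 71 and 72. Over 2197 aligned bases, the transcripts of the genes were identical at 2181 (99.3%), so reads can be assigned to either copy and the split between them is uncertain. Of the 20 heat shock chaperones, 16 lay above 0 with a median of 0.11, and 11 of 20 did without saline mouse 64, the lowest mouse for 14 of them. Relative to all genes, the chaperone median was 0.08 with all libraries and 0.11 without that mouse. Dnajb1, a partner of HSP70, differed by 0.34 ± 0.22, and Hspa8, the constitutive HSP70, by 0.11 ± 0.25.

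In 46 genes (0.303%) the 5 cocaine and the 5 saline mice did not overlap at all, 23 (0.151%) with cocaine higher and 23 (0.151%) with cocaine lower. The 12 in each direction with the smallest unadjusted p, predicted genes left out, were followed. Because they were picked for this separation, their values describe it. With 5 mice in each group and no effect of treatment, a larger share of genes than 0.303% would be expected to separate fully. The 46 genes are therefore no excess over chance, and no test of the count was run. Fkbp1b, which binds and stabilises calcium-release channels of the ryanodine receptor family (chr12:4833174-4841591, minus strand, mm10), was at 25.8, 27.8, 36.3, 20.7 and 20.4 TPM in cocaine mice 70, 71, 72, 79 and 80, against 18.4, 17.2, 13.6, 17.7 and 18.4 TPM in saline mice 64, 65, 66, 77 and 78. Cocaine mice 79 and 80 were nearest to the saline mice. The model gave a difference of 0.58 ± 0.26, and of 0.38 ± 0.30 without mice 71 and 72. Fam19a1, a secreted chemokine-like protein of neurons, was at 4.95, 18.1, 17.5, 7.56 and 6.27 TPM in the cocaine mice and at 1.65, 2.42, 2.09, 4.94 and 4.45 TPM in the saline mice. Mice 71 and 72 were again highest, cocaine mouse 70 and saline mouse 77 nearly met, and the difference was 1.57 ± 0.56, or 0.98 ± 0.63 without mice 71 and 72. Others higher in cocaine mice were Olfm2, an extracellular olfactomedin, at 52.2 to 63.6 TPM in cocaine mice against 35.1 to 51.6 TPM in saline mice, and Nrp2, a co-receptor for semaphorins, at 16.5 to 20.0 TPM in cocaine mice against 6.80 to 15.5 TPM in saline mice. Paqr7, a membrane progestin receptor, was at 69.2 to 78.0 TPM in cocaine mice against 54.8 to 64.2 TPM in saline mice. Snap47, a SNARE protein of the secretory pathway, was at 387 to 428 TPM in cocaine mice against 317 to 387 TPM in saline mice, so its groups all but touched. The remaining 6 were Ndst4, Slc5a5, Angel1, Hivep1, Pdss2 and Ube2e2, with differences between 0.20 and 1.14.

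Ccno, an atypical cyclin needed to form multiple cilia (chr13:112987802-112990777, plus strand, mm10), had the smallest unadjusted p of the 12 that were lower in cocaine mice. Its level was 2.22, 4.19, 3.92, 3.29 and 3.80 TPM in cocaine mice 70, 71, 72, 79 and 80, against 9.81, 7.70, 6.56, 5.44 and 4.70 TPM in saline mice 64, 65, 66, 77 and 78. Saline mouse 78 was closest to the cocaine mice, and the difference was -0.87 ± 0.28, or -1.01 ± 0.33 without mice 71 and 72. Zmynd10, which helps assemble the dynein motors of cilia, was at 7.04 to 10.6 TPM in cocaine mice against 10.7 to 13.9 TPM in saline mice. Markers of ciliated ependymal cells were not apart: 6 of 9 tested lay below 0, and their summed level was 38.2 to 125 TPM in cocaine mice and 41.4 to 92.6 TPM in saline mice. The 125 TPM was that of cocaine mouse 72, the highest of the 10 mice for 8 of the 9 markers. Cocaine mice 70, 71, 79 and 80 were at 38.2, 54.2, 41.4 and 58.6 TPM. Without cocaine mice 71 and 72, 7 of 9 lay below 0, and the median relative to all genes was -0.37, against -0.10 with all libraries. Tnni1, the troponin I of slow muscle, was at 4.20 to 5.80 TPM in cocaine mice against 6.27 to 10.8 TPM in saline mice. Gmpr and Arg2, enzymes of purine and arginine metabolism, differed by -0.25 ± 0.19 and -0.30 ± 0.25, and Pllp, a myelin membrane protein, by -0.22 ± 0.19. Of the others, Pnp2, Tmem125, Tceal6, Mocs3, Nme6 and Ccdc94 had differences between -0.50 and -0.29, and Pnp2 has a near-identical neighbour, Pnp, so its reads may be split.

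Weighting each library by how closely it follows the model (limma array weights) changed the count of calls. The weights ran from 0.638 to 4.13 in cocaine mice, highest in mice 71 and 72, and from 0.219 (mouse 64) to 5.58 (mouse 78) in saline mice. The weighted cocaine levels therefore lean most on mice 71 and 72, the pair with high cortical markers. With these weights, 23 genes (0.151%) had an adjusted p under 0.05. An unadjusted p under 0.05 was found for 2075 (13.7%), 847 higher and 1228 lower. Hspa1b was among the 23, at 1.44 ± 0.27 (limma adjusted p = 0.0175 with array weights). The 12 others with a gene name and a mean of at least 5 TPM in the higher group are named here after their values were seen. Perp, a membrane protein of cell junctions, had the smallest adjusted p of these 12, at -0.63 ± 0.12 (adjusted p = 0.0192). Its level was 11.8, 10.8, 9.45, 16.6 and 13.9 TPM in cocaine mice 70, 71, 72, 79 and 80, against 17.1, 15.1, 23.5, 16.4 and 17.05 TPM in saline mice 64, 65, 66, 77 and 78. Only cocaine mouse 79 lay inside the saline range. With libraries weighted equally the difference was -0.51 ± 0.25, and -0.33 ± 0.30 without mice 71 and 72. Nog, the secreted inhibitor of bone morphogenetic proteins, was at 3.00 to 8.40 TPM in cocaine mice and 2.59 to 4.25 TPM in saline mice, and its difference without mice 71 and 72 was 0.26 ± 0.37. Adra2a, the alpha-2A adrenergic receptor, was at 10.5, 11.2, 18.8, 7.93 and 9.14 TPM in the cocaine mice and at 5.61, 9.04, 3.95, 8.20 and 5.62 TPM in the saline mice. Mouse 79 was the cocaine mouse inside the saline range, and the difference with array weights was 0.97 ± 0.21. Weighted equally and without mice 71 and 72 it was 0.52 ± 0.43. Ddah2, Fndc4, Serf1, Flot1, Coro1a, Bud31 and Snord15b were also higher, and Nmnat3, which makes NAD, and Ephx1, an epoxide hydrolase, were lower. Snord15b, a small nucleolar RNA, was listed at 0 in 2 of 5 cocaine mice and 4 of 5 saline mice.

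**Figure D4:**
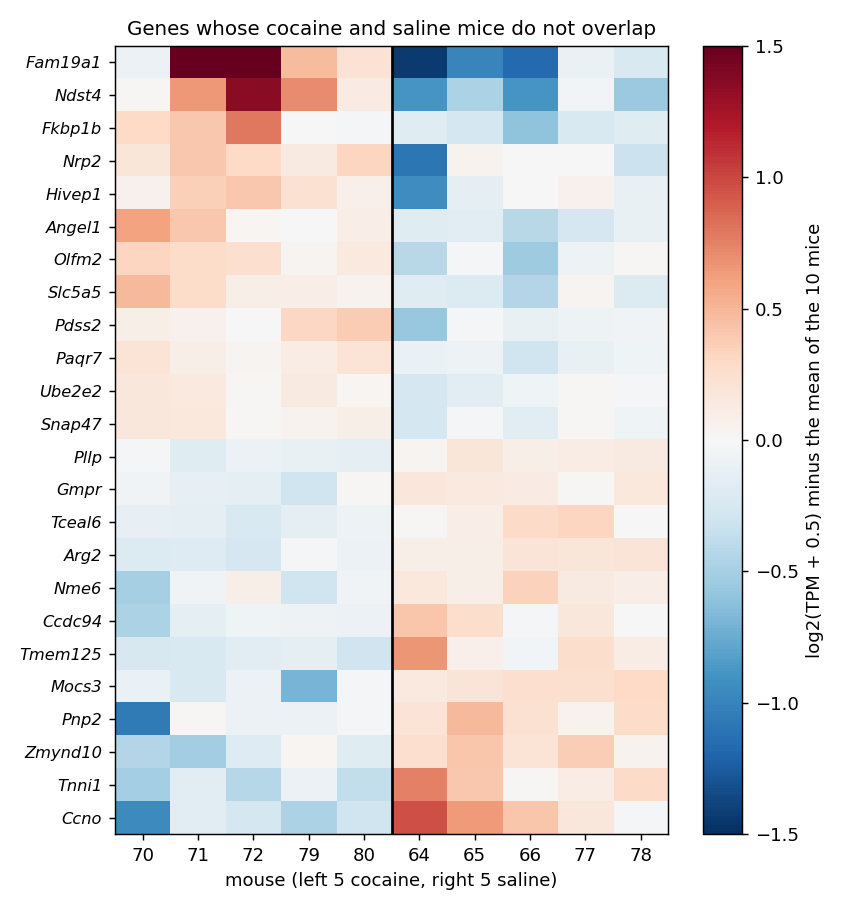
Deviation of each mouse from the mean of the 10 mice (log2(TPM + 0.5), colour scale held between -1.5 and 1.5) for the 24 followed genes whose groups did not overlap, with the 5 cocaine mice in the left columns and the 5 saline mice in the right. Fam19a1 and Ndst4 are most uneven within the cocaine group, and Ccno is lowest in cocaine mouse 70 and highest in saline mouse 64.

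Receptors of other transmitters were taken next. Of 6 NMDA receptor subunits tested, 5 lay above 0, led by Grin2b at 0.65 ± 0.40, with 7.09 to 45.2 TPM in cocaine mice and 9.20 to 19.3 TPM in saline mice. Without mice 71 and 72 Grin2b stood at 0.14 ± 0.44. AMPA and kainate subunits lay above 0 in 8 of 12 cases, or 2 of 12 without saline mouse 64, which was lowest for 10 of them. Their median relative to all genes was 0.04, and -0.02 without that mouse. Gria1 and Gria2, the main AMPA subunits, differed by -0.07 ± 0.34 and 0.10 ± 0.39, and the postsynaptic scaffold Homer1 by 0.12 ± 0.36. In the GABA system 10 of 19 genes lay above 0, or 15 without mice 71 and 72 and 6 without saline mouse 64, which was lowest for 14 of them. Gabrd, the delta subunit of extrasynaptic GABA receptors, was at 115, 135, 100.2, 92.4 and 128 TPM in cocaine mice 70, 71, 72, 79 and 80, against 142, 159, 155, 121 and 162 TPM in saline mice 64, 65, 66, 77 and 78. Again saline mouse 77 was the saline mouse inside the cocaine range, and the difference was -0.38 ± 0.24.

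Among opioid receptors, Oprm1, the receptor for enkephalin and morphine, was at 3.44 to 6.75 TPM in cocaine mice and 2.26 to 5.40 TPM in saline mice, and Oprk1, the dynorphin receptor, at 18.4 to 43.3 TPM in cocaine mice and 15.6 to 49.6 TPM in saline mice. The cannabinoid receptor gene Cnr1 differed by 0.41 ± 0.37, and 0.19 ± 0.44 without mice 71 and 72. Adcyap1, the precursor of the peptide PACAP, was at 4.58, 6.30, 11.01, 7.49 and 4.43 TPM in cocaine mice 70, 71, 72, 79 and 80, against 0.884, 1.76, 1.47, 5.29 and 5.50 TPM in saline mice 64, 65, 66, 77 and 78. Saline mice 77 and 78 lay inside the cocaine range and the other 3 far below it, for a difference of 1.24 ± 0.59 (limma unadjusted p = 0.0436). Esr1, estrogen receptor alpha, was at 1.33 to 4.01 TPM in cocaine mice and 2.105 to 5.27 TPM in saline mice. Of 10 tested sex steroid receptors and enzymes, 4 lay above 0, or 7 without mice 71 and 72. Over 30 genes often studied in cocaine models, among them Fosb, Cdk5 and Gria2, 23 lay above 0 with a median of 0.08, and 10 did without saline mouse 64. Their median relative to all genes was 0.06, and -0.006 without that mouse.

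Markers of cells other than neurons were also followed. Oligodendrocyte genes lay below 0 in 13 of 14 cases, with a median of -0.15. They did in 10 of 14 without mice 71 and 72 and in 14 of 14 without saline mouse 64. Opalin, an oligodendrocyte membrane protein, was the lowest of them at -0.43 ± 0.25, with 67.8 to 85.3 TPM in cocaine mice and 83.4 to 126 TPM in saline mice. Mbp, the myelin basic protein, differed by -0.13 ± 0.30. Astrocyte markers lay above 0 in 11 of 12 cases with a median of 0.09, or 8 of 12 without saline mouse 64. Relative to all genes, the astrocyte median was 0.07 with all libraries and 0.17 without that mouse. Microglial markers lay above 0 in 3 of 12 cases with a median of -0.05, but in 10 of 12 without mice 71 and 72 and in 6 of 12 without saline mouse 64. Among 5 pituitary hormone genes tested, 4 lay below 0. Prl, prolactin, was at 0, 0.181, 1.26, 2.93 and 24.7 TPM in cocaine mice 70, 71, 72, 79 and 80, against 0, 13.9, 23.1, 37.1 and 6.22 TPM in saline mice 64, 65, 66, 77 and 78. Both groups held mice at 0 and mice with clear levels, and the difference was -1.94 ± 0.98. It was -1.27 ± 1.13 without cocaine mice 71 and 72 and -2.96 ± 0.90 without saline mouse 64.

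The same contrast was then set beside that in the other 3 conditions, each with its own saline mice. Some of those libraries stood apart or went against their labels. The library labelled male cocaine 69 held 237 TPM of Xist, against 0.138 to 8.02 TPM in the other 9 libraries labelled male, and the code in its description names another group than its title. Ribosomal protein genes held 31.1% and 22.5% of the TPM in estradiol cocaine libraries 126 and 134, 24.6% in male cocaine library 67 and 19.0% in placebo saline library 137, and these were the 4 libraries that correlated least with the others. The part of these libraries in the values below is shown by leaving them out.

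For striatal projection neuron markers, the count above 0 was 0 of 20 in intact females, 6 of 20 in the libraries labelled intact male, 6 of 20 in ovariectomized placebo females and 0 of 20 in ovariectomized estradiol females. Without the 4 least correlated libraries these counts were 0, 16, 0 and 5 of 20 in the same order, so the counts in the other 3 conditions changed with those libraries. Without the library labelled male cocaine 69 the male count was again 6 of 20. Of all genes, 42.1%, 55.5%, 25.8% and 85.2% lay below 0 in these 4 conditions, and 0.954%, 1.02%, 0.823% and 41.7% had an unadjusted p under 0.05, with 0 called in each. In numbers of genes these were 145, 155, 125 and 6335 of 15196. Without the 4 least correlated libraries the numbers were 268, 2359, 223 and 329, again with 0 called in each. The median of all genes was 0.03, -0.03, 0.15 and -0.56 in these conditions, and -0.04 in estradiol females without libraries 126 and 134. Relative to it, the marker medians were -0.32, -0.05, -0.27 and -0.08, and without the 4 libraries they were -0.32, -0.04, -0.33 and -0.05.

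The difference of responses, intact females minus the libraries labelled male, lay below 0 for 18 of the 20 markers, against 40.1% of all genes, and none of the 20 had an unadjusted p under 0.05. It lay below 0 for 17 of 20 without the library labelled male cocaine 69 (30.6% of all genes) and for 20 of 20 without the least correlated libraries (71.4% of all genes). Against placebo females 14 of 20 lay below 0 (69.3% of all genes), or 9 of 20 without those libraries (38.3% of all genes). Against estradiol females 1 of 20 did (15.9% of all genes), or 16 of 20 without those libraries (41.4% of all genes). Over all 15196 genes, limma called 0 (0%) for intact females minus each of the other 3 conditions. Unadjusted p-values under 0.05 numbered 101 (0.665%) against males, 83 (0.546%) against placebo females and 2094 (13.8%) against estradiol females. Without the least correlated libraries they numbered 394, 134 and 301 in the same order.

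Penk differed by -0.47 ± 0.25 in intact females, -0.23 ± 0.25 in males, -0.17 ± 0.25 in placebo females and -0.29 ± 0.25 in estradiol females. In estradiol females that value lay above the median of all genes, and without libraries 126 and 134 it was -0.06 ± 0.25. Adora2a was at -0.43 ± 0.27, -0.41 ± 0.27, -0.23 ± 0.27 and -0.32 ± 0.27 in the same order, and in estradiol females it was at 0.01 ± 0.25 without those 2 libraries. After each library was centred on its median, both genes lay above 0 in estradiol females, at 0.32 ± 0.28 for Penk and 0.29 ± 0.25 for Adora2a. Hspa1b was at 1.52 ± 0.45 in intact females, 0.35 ± 0.45 in males, 0.08 ± 0.45 in placebo females and -0.08 ± 0.45 in estradiol females. It was singled out for its small p in intact females, so its comparison with the other conditions is a description. The differences of responses were 1.17 ± 0.63 against males, 1.44 ± 0.63 against placebo females and 1.60 ± 0.63 against estradiol females, beside medians of all genes of 0.05, -0.11 and 0.59. The first was 1.19 ± 0.66 without the library labelled male cocaine 69, and the last was 0.97 ± 0.64 without the least correlated libraries. All 3 share the intact female libraries, and none passed adjustment over all genes.

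For Ccno the differences of responses were -0.55 ± 0.40, -0.82 ± 0.40 and -0.79 ± 0.40 against males, placebo females and estradiol females. Fkbp1b lay above 0 in all 4 conditions, at 0.58 ± 0.26, 0.32 ± 0.26, 0.22 ± 0.26 and 0.24 ± 0.26, in the order of conditions used for Penk. Prl showed the widest gap to males among the genes followed, at -3.52 ± 1.39 (limma unadjusted p = 0.0159, adjusted p = 1.00), or -3.18 ± 1.43 without the library labelled male cocaine 69.

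**Figure D5:**
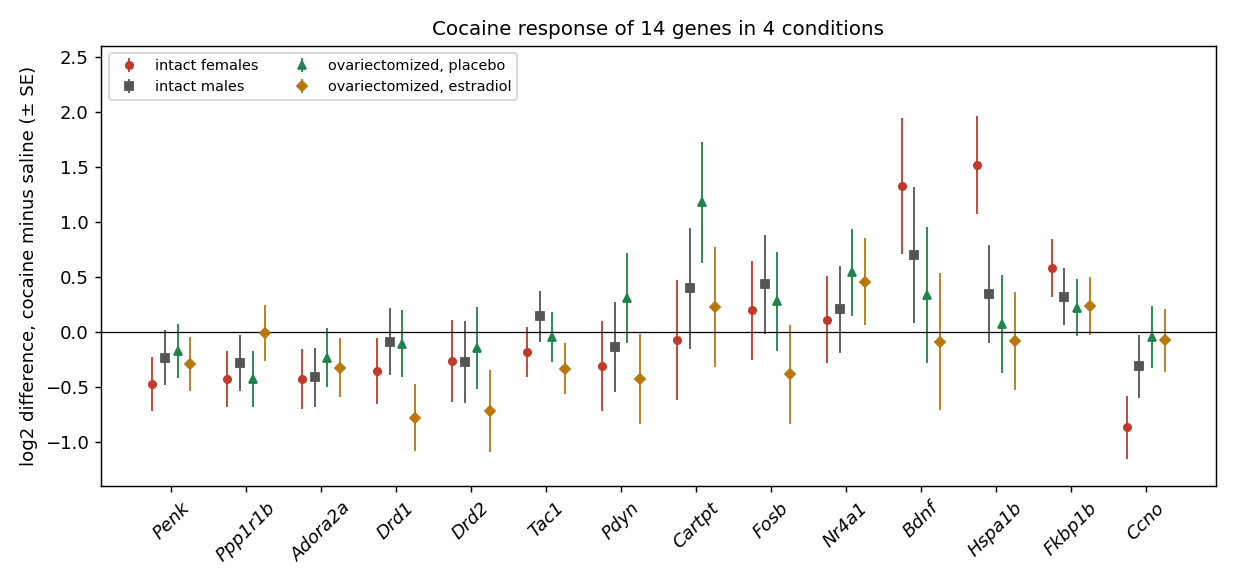
Cocaine response of 14 genes (log2 difference, cocaine minus saline, with the standard error of the model) in intact females, intact males, and ovariectomized females with placebo or estradiol (n = 5 cocaine and 5 saline mice each). All 40 libraries are included. Penk lies below 0 in all 4 conditions, but above the median of all genes (-0.56) in estradiol females, and Hspa1b is at 1.52 in intact females and between -0.08 and 0.35 in the others.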

How the data were processed

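Per the labels, RNA from left and right nucleus accumbens punches was sequenced as 1 library per mouse in 8 groups of 5. The authors deposited 1 value per gene and mouse in a table named for FPKM. Each of its 40 columns sums to 1000000, so the deposited values were taken as TPM. How they were converted is not given in the sources used here. The submitters' processing notes name build mm10 and, without roles, the aligners TopHat2 2.0.9 and Bowtie2 2.1.0.0, the programs Cuffdiff 2.2.0 and Cufflinks 2.2.0, and the packages limma and DESeq2. Fragment-based values of this kind share reads among near-identical genes.

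Of 23349 entries, 27 whose name is a date were dropped. A gene was tested if 5 or more of the 40 libraries reached 1 TPM for it, which left 15196. The scale was log2(TPM + 0.5), which understates changes of low genes. All 40 libraries entered 1 linear model of 8 group means, leaving 32 residual degrees of freedom. It was fitted in R 4.3.3 by limma 3.58.1 (options trend and robust), and p-values were adjusted over all 15196 genes by the Benjamini-Hochberg method at 0.05. The code of the fit was run on simulated data with independent normal noise, smaller than the observed spread, and with no library standing apart. That run checks the calculation only, and not how well the model suits these libraries. A group pair was called apart where all 5 cocaine mice lay above or below all 5 saline mice. Groups came from the sample titles. For the library labelled male cocaine 69 the title and the code in the description conflict and its Xist level goes against the label; the title was followed, and values against males are also given without it.

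Named genes were the 12 higher and 12 lower with the smallest p among named genes whose groups were apart and averaged at least 5 TPM in the higher group, a panel of 30 genes, each list's member with the smallest p and list members with an unadjusted p under 0.05. Genes called only with array weights were added. The 40 gene lists and the panel were chosen with earlier results of these data known. Of the list symbols, 4 were found under an older name (Drd1 as Drd1a) and 2 were absent. Alternatives changed the pseudocount, the filter, the centring, the libraries in the fit, the library weights and the covariates, and left out each of the 10 mice in turn. Coordinates came from GENCODE release M21 and promoter sequence from RefSeq (GRCm38.p6).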

Additional observations from a re-analysis of the deposited data

Results flagged for a closer look

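In a group of 5 mice, a highest or lowest mouse was looked at again when its gap to the nearest other mouse took up more than 0.71 of the group's range (Dixon's limit at 95%). Of 202 such groups, 24 (11.9%) met this. The limit gives about 1 in 20 only for independent, normally distributed values. These groups share the same mice, and some of the genes were picked for their separation or small p. The share of 11.9% therefore cannot be compared with that rate, and no excess over chance is claimed. No test of a difference in cocaine response between conditions passed adjustment in the model that weights libraries equally, while array weights called 1 gene against males.

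Saline mouse 64 accounts for 12 of them. Its ribosomal protein share was 13.4%, against 7.33% to 7.80% in the other saline mice, and Rps28, a ribosomal protein gene, was at 2393 TPM against 1364 to 1555 TPM. It was also highest for Hsd17b10 (129 TPM), Flot1 (82.4 TPM) and Snord15b (44.5 TPM, with the other 4 at 0). It was lowest for Hivep1 (5.84 TPM), Pdss2 (8.43 TPM), Gria1 (157 TPM, others 273 to 315 TPM), Vcan (4.74 TPM), Faah (8.18 TPM), Homer2 (3.72 TPM) and Isg15 (0 TPM, others 6.00 to 8.41 TPM).

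Saline mouse 66 was lowest for Fkbp1b (13.6 TPM) and Paqr7 (54.8 TPM) and highest for Nme6 (9.97 TPM) and Perp (23.5 TPM). Saline mouse 77 was lowest for Ppp1r1b (1001 TPM, others 1361 to 1495 TPM) and Adora2a (153 TPM, others 228 to 235 TPM).

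Among cocaine mice, mouse 70 was lowest for Pnp2 (2.84 TPM) and Ccdc94 (8.62 TPM). Mouse 72 was highest for Tshb (1.04 TPM, others at 0) and lowest for Grik1 (6.96 TPM). Mouse 71 was highest for Isg15 (9.22 TPM) and mouse 80 for Opalin (85.3 TPM, others 67.8 to 72.3 TPM).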

How the results depend on the processing

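No gene was called in intact females in any alternative but array weights, which called 23. No paired analysis was possible because the mouse numbers are not shared between the groups. Genes at an unadjusted p under 0.05 numbered 145 as reported, 395 with no filter on low values, 38 with a filter of 5 TPM, 337 in a fit of the 10 libraries alone, 268 without the least correlated libraries, 2075 with array weights, 342 with the ribosomal protein share as a covariate and 353 with a term for the range of mouse numbers (64 to 72 or 77 to 80). For the difference of responses against males, array weights called 1 gene, and leaving out the library labelled male cocaine 69 called 0. Genes with groups apart numbered 46 as reported, 75 after centring and 229 without mice 71 and 72, an alternative added after seeing the data. Leaving out 1 mouse gave 72 (without mouse 72) to 264 (without mouse 64). Fewer mice separate more easily, so counts with mice left out are not comparable with 46. The cause of the range from 72 to 264 was not tested.

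Of 920 list medians under the alternatives, 9 moved beyond the spread. Relative to all genes, with the cortical marker level as a covariate, these were microglia at 0.10, neuropeptides at 0.32, ribosomal proteins at 0.18 and oxidative phosphorylation at 0.21, and pituitary hormones at -2.19 with a pseudocount of 0.1. Leaving out 1 mouse gave -0.17 to 0.074 for microglia, -0.14 to 0.040 for neuropeptides, -0.22 to 0.11 for ribosomal proteins and -0.094 to 0.15 for oxidative phosphorylation. The cause was not tested. The striatal projection neuron median ran from -0.40 to -0.29 when 1 mouse was left out.

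Signs turned in 42 of 2247 values of named genes. With the cortical covariate, Fosb was at -0.017, Arc -0.22, Nr4a1 -0.14, Ntrk2 -0.070, Cartpt 0.24, Gria2 -0.12, Homer1 -0.10, Cdk5 -0.011, Gfap -0.044, Vcan -0.10 and Hdac4 -0.042. Without mice 71 and 72, Fosb was at -0.12, Arc -0.31, Nr4a1 -0.27, Nr4a2 -0.21, Oprk1 0.032, Gria1 0.017, Homer1 -0.046, Esr1 0.060, Chat 0.053 and Vip -0.17. Gria2 was at -0.075 with array weights and -0.00046 with the ribosomal covariate, and Cdk5 at -0.013 after centring and -0.0047 with array weights. Leaving out 1 mouse gave -0.017 to 0.37 for Fosb, -0.044 to 0.37 for Arc, -0.081 to 0.32 for Nr4a1, -0.19 to 0.015 for Cartpt, -0.25 to 0.0023 for Gria1, -0.14 to 0.23 for Gria2, -0.024 to 0.27 for Homer1 and -0.30 to 0.027 for Esr1. For Tmem119 it gave -0.015 to 0.25, for Vcan -0.092 to 0.31, for Tek -0.50 to 0.0053 and for Isg15 -0.082 to 0.96. Hspa1b kept its direction in every alternative, between 1.13 and 1.76 when 1 mouse was left out.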

Other observations

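Of 77 cytosolic ribosomal protein genes tested, 3 lay above 0. Without cocaine mice 71 and 72, 9 did, and 55 did without saline mouse 64, which was the highest mouse for 69 of them. Of 90 genes of oxidative phosphorylation, 52 lay above 0, or 45 without cocaine mice 71 and 72 and 69 without saline mouse 64. Cox6b2, a testis-type subunit of cytochrome c oxidase, was at 6.91 to 15.4 TPM in cocaine mice and 3.64 to 9.97 TPM in saline mice, and Cox7b2, a related subunit, was at 0 to 3.25 TPM in cocaine mice and 2.04 to 3.94 TPM in saline mice. Genes of the circadian clock lay above 0 in 8 of 16 cases, or 1 of 16 without saline mouse 64, the lowest mouse for 13 of them. Their median relative to all genes was -0.03, and -0.07 without that mouse. Dbp, a clock output factor, differed by -0.25 ± 0.25. Of 27 histone and DNA modifiers, 13 lay above 0, with differences between -0.08 (Dnmt1) and 0.23 (Hdac4). The count was 18 without cocaine mice 71 and 72 and 4 without saline mouse 64, the lowest mouse for 21 of them. The median of these modifiers relative to all genes moved little. It was -0.027 with all libraries, -0.0046 without mice 71 and 72 and -0.034 without mouse 64.

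Interferon response genes lay above 0 in 3 of 12 cases, or 1 of 12 without saline mouse 64, and Irf7, which drives interferon production, was at 1.13 to 2.08 TPM in cocaine mice against 1.89 to 3.49 TPM in saline mice. Glucocorticoid response genes lay above 0 in 9 of 15 cases, or 7 without saline mouse 64, led by Zbtb16, a zinc finger repressor, at 0.58 ± 0.44 (0.38 ± 0.47 without that mouse). Ttr, the thyroid hormone carrier made by the choroid plexus, was at 2.31, 7.62, 1.21, 3.89 and 24.1 TPM in cocaine mice 70, 71, 72, 79 and 80, against 39.3, 25.6, 11.9, 32.7 and 4.71 TPM in saline mice 64, 65, 66, 77 and 78. Cocaine mouse 80 was above saline mice 66 and 78, and saline mouse 78 was also below cocaine mouse 71. The difference was -1.81 ± 1.04. Choroid plexus markers as a list lay above 0 in 3 of 6 cases, or 1 of 6 without cocaine mice 71 and 72.

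The other lists gave these counts of tested members above 0. Among neurons they were 5 of 9 for hypothalamic and thalamic markers, 6 of 10 for septal and subpallial markers, 2 of 7 for cholinergic neurons and 7 of 10 for GABA interneurons. Without cocaine mice 71 and 72 the last 2 were 6 of 7 and 4 of 10, and without saline mouse 64 they were 1 of 7 and 5 of 10. Among other cells they were 4 of 10 for oligodendrocyte precursors, 0 of 11 for endothelium, 7 of 13 for vessel wall and meninges and 5 of 7 for blood. Oligodendrocyte precursors gave 7 of 10 without cocaine mice 71 and 72 and 2 of 10 without saline mouse 64. Blood gave 2 of 7 without cocaine mice 71 and 72, and the vessel wall 3 of 13 without saline mouse 64. The endothelial differences lay between -0.27 (Tek) and -0.02 (Emcn), and without cocaine mice 71 and 72 there were 5 of 11 above 0. Among signalling genes the counts were 1 of 4 for dopamine receptors, 6 of 14 for neuropeptides, 3 of 4 for opioid receptors and 6 of 8 for the endocannabinoid system. They were 3 of 7 for metabotropic glutamate receptors, 8 of 14 for postsynaptic scaffolds and 11 of 21 for calcium and cAMP signalling. Without cocaine mice 71 and 72 the counts were 4 of 8 for the endocannabinoid system, 4 of 7 for metabotropic glutamate receptors, 6 of 14 for scaffolds and 10 of 21 for calcium and cAMP signalling. Without saline mouse 64, 5 of 14 scaffold genes, 6 of 21 calcium and cAMP genes and 0 of 4 dopamine receptor genes lay above 0, and 5 of 10 septal and subpallial markers did.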
